A study of Mus musculus with 10 samples.

Results

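The tachykinin genes of the mouse were followed in RNA bound to the ribosomes of cholinergic neurons from whole striatum. The set holds 5 of the 32531 gene symbols in the count tables, chosen by name: the ligand precursors Tac1 and Tac2 and the receptors Tacr1, Tacr2 and Tacr3. All 5 were listed in each of 10 libraries. Every library, controls and input included, came from adult Chat-TRAP DW167 animals, which carry EGFP fused to the ribosomal protein Rpl10a under Chat, as the name of the line gives it, so that ribosomes of cholinergic cells can be purified through EGFP. Immunopurified libraries came from cocaine self-administration, yoked control and saline self-administration animals, 3 of each, and the input is a single library of total RNA from the striatum of saline animals. The labels do not say what the yoked animals received, whether a library is 1 animal or a pool, or whether replicates are separate animals, so p values measure only the spread between these libraries.

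Tachykinins are short peptides that share a C-terminal motif and are cut from larger precursors. Tac1 encodes substance P and neurokinin A, and Tac2 encodes neurokinin B. Their receptors NK1 (Tacr1), NK2 (Tacr2) and NK3 (Tacr3) are G protein-coupled receptors that act mainly through Gq and phospholipase C, and prefer substance P, neurokinin A and neurokinin B in that order. In the striatum substance P is made by the spiny projection neurons that carry the D1 dopamine receptor, and NK1 receptors on cholinergic interneurons let the peptide excite them and raise acetylcholine release.

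Immunopurified libraries held 24526765 to 75220922 gene counts and the input 40912230. All 9 cholinergic markers were at least 2-fold above the input in all 3 saline libraries, and their middle gene had a log2 ratio of 5.76 ± 0.17 (SD over 3 library medians). The libraries numbered replicate 2 stood apart from the others of their group: chi-square per degree of freedom over genes was 204 to 468 (6 pairs) for pairs that include one and 42.2 to 66.1 (3 pairs) for the others. Lane 3 holds saline, lane 4 cocaine and yoked and lane 5 the input, so an effect of the lane cannot be told apart from one of saline treatment or of immunopurification.

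The sequence around an annotated start site is shown for 3 members. They were chosen because both receptors Tacr1 and Tacr3 were high in cholinergic RNA while the ligand Tac1 was low, as described next. Each window runs from 250 bases before to 50 after an annotated start site (RefSeq, GRCm38.p6, plus strand), at chr6:82402225-82402524 for Tacr1, chr3:134828757-134829056 for Tacr3 and chr6:7554811-7555110 for Tac1. The whole Tacr1 window lies inside the annotated span of the gene, which begins at 82402003, so it is not the sequence upstream of that span. The Tacr3 and Tac1 windows begin before the spans of their genes, which start at 134829007 and 7555061. Capitals mark matches on either strand to 6 motifs. The E-box was searched as CACGTG and the core of the cyclic AMP response element (CRE) as TGACG. The TATA box was searched as TATAAA and the CCAAT box by its own letters. The GC box, which binds Sp factors, was searched as GGGCGG and the homeodomain core as TAATTA, and no match overlapped another.
Tacr1: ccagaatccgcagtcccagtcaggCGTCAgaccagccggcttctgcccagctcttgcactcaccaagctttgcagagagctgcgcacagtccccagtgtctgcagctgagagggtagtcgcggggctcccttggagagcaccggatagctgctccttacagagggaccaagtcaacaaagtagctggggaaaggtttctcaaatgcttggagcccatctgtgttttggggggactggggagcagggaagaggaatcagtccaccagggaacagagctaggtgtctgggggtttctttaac
Tacr3: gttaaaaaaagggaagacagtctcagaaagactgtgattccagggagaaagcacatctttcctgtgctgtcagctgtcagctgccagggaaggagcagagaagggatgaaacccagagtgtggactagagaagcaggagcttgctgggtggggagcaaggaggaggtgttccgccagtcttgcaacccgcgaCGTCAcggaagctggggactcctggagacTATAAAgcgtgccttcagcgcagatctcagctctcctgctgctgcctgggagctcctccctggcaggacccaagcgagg
Tac1: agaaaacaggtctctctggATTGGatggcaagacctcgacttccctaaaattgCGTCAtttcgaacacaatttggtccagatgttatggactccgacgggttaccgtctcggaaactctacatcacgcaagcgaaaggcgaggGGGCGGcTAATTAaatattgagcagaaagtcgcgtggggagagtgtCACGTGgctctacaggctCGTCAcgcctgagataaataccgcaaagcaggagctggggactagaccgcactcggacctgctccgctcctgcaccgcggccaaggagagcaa
The Tacr1 window held 1 CRE core and none of the other motifs. The Tacr3 window held 1 CRE core, 58 bases before the start site, and 1 TATA box, 29 bases before it. The Tac1 window held 2 CRE cores and 1 match each to the E-box, CCAAT box, GC box and homeodomain motifs. Of 32851 promoter windows of this length, 20.8% held the CRE core, 13.6% the TATA box, 7.15% the E-box, 37.4% the CCAAT box, 35.7% the GC box and 5.29% the homeodomain core. These matches are letters in a window and were not tested as binding sites.

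The receptor Tacr1 lies on chromosome 6, from 82402003 to 82560104 (GRCm38.p6), and no other gene of the RefSeq table overlaps it. Tacr1 measured 1099, 1514 and 1262 CPM (counts scaled to the library's total of gene counts) in saline immunopurified libraries 1 to 3, against 33.8 CPM in the input. Every immunopurified library thus lay far above the input, which rested on 1384 Tacr1 counts. The log2 ratio to the input was 5.24 ± 0.23 (SD, n = 3), a 37.8-fold difference, and the counting interval of the pooled ratio was 36.4 to 40.5-fold (95%, counting error only).

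Tacr3, the receptor with a preference for neurokinin B, lies on chromosome 3 from 134829007 to 134934581 and also overlaps no other RefSeq gene. Tacr3 measured 149, 147 and 149 CPM in saline immunopurified libraries 1 to 3, against 4.18 CPM in the input. The 3 saline libraries lay within 2 CPM of each other. The log2 ratio of Tacr3 was 5.15 ± 0.0098 (SD, n = 3), 35.5-fold, with a pooled counting interval of 30.5 to 41.5-fold set mainly by the 171 counts of the input. The log2 ratios of Tacr1 and Tacr3 differed by less than the spread of Tacr1 between libraries.

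Among 15888 genes with at least 20 counts in the input or in the mean saline library, Tacr1 ranked 51 and Tacr3 59 from the highest ratio. They stood beside the cholinergic genes Slc5a7, the choline transporter (rank 46), and Lhx8, a transcription factor of forebrain cholinergic neurons (rank 54), and below Chat, the enzyme that makes acetylcholine (rank 30). Tac1 and Tac2 went the other way. Of the 4 members that could be measured against the input, 2 were at least 2-fold higher in all 3 saline libraries and 2 at least 2-fold lower, where 12.2% of all measured genes were higher by this rule and 23.1% lower. The median gene lay at a log2 ratio of −0.20. With a single input library these ratios carry no p value.

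**Figure D1:**
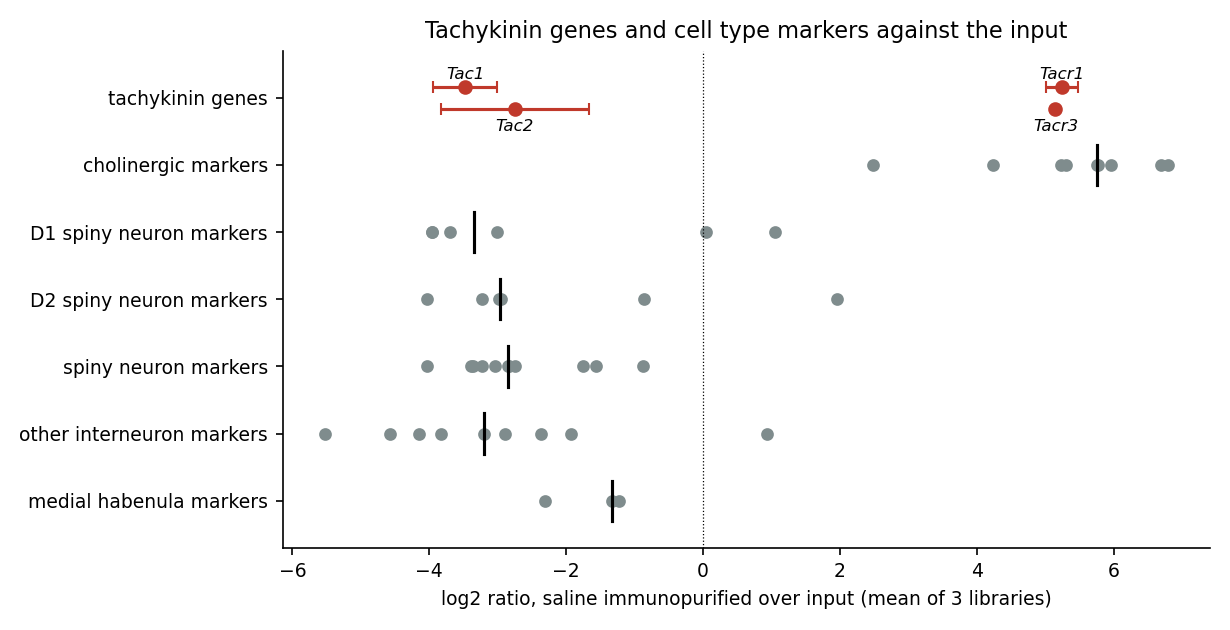
Log2 ratio of saline immunopurified RNA to the input, as the mean of 3 libraries, for the tachykinin genes (red, bars are SD over 3 libraries, with a Tac2 count of 0 set to 3 counts) and for markers of cell types (grey points, 1 per gene, black lines are medians). Tacr1 at 5.24 and Tacr3 at 5.15 lie among the cholinergic markers, and Tac1 at −3.47 lies among the markers of spiny neurons and of other interneurons.

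Across the 9 immunopurified libraries both receptors stayed close to the same multiple of the input. The ratio of Tacr1 to the input was 31.7, 44.1 and 30.3-fold in cocaine libraries 1 to 3, 31.3, 38.1 and 29.0-fold in the yoked libraries and 32.5, 44.8 and 37.3-fold in the saline libraries. In each group the library numbered replicate 2 was the highest for Tacr1. For Tacr3 it was 32.8, 39.9 and 30.4-fold in cocaine, 29.6, 42.0 and 29.3-fold in yoked and 35.6, 35.2 and 35.6-fold in saline libraries. Replicate 2 was the highest for Tacr3 in the cocaine and yoked groups and the lowest in saline.

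Within a library, Tacr1 had 7.83, 8.95 and 8.05 counts per Tacr3 count in the cocaine group, 8.54, 7.34 and 8.02 in the yoked group and 7.39, 10.3 and 8.48 in the saline group, against 8.09 in the input (95% interval 6.90 to 9.54). The mean over the 9 immunopurified libraries was 8.32 ± 0.91 (SD, n = 9), and 7 of them fell on or between 7.39 and 8.95. Saline library 2 was the highest and yoked library 2 the lowest. This ratio of counts is not scaled to transcript length, so it compares libraries and does not say which receptor transcript is more abundant. Relative to Chat, Tacr1 had 1.91 ± 0.20 counts in cocaine, 1.95 ± 0.29 in yoked and 2.34 ± 0.16 in saline libraries (SD, n = 3 each), against 3.35 in the input. Tacr3 had 0.230 ± 0.0093 counts per Chat count in cocaine, 0.247 ± 0.056 in yoked and 0.272 ± 0.035 in saline libraries, against 0.414 in the input. Both receptors were therefore multiplied less than Chat itself. Cocaine and saline libraries did not overlap in these ratios, while yoked libraries overlapped both. Tacr1 per Chat count spanned 1.775 to 2.14 in cocaine and 2.20 to 2.52 in saline libraries. Tacr3 per Chat count spanned 0.220 to 0.239 and 0.245 to 0.312. The share of all genes that separate relative to Chat was not computed, and the difference was not tested.

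**Figure D2:**
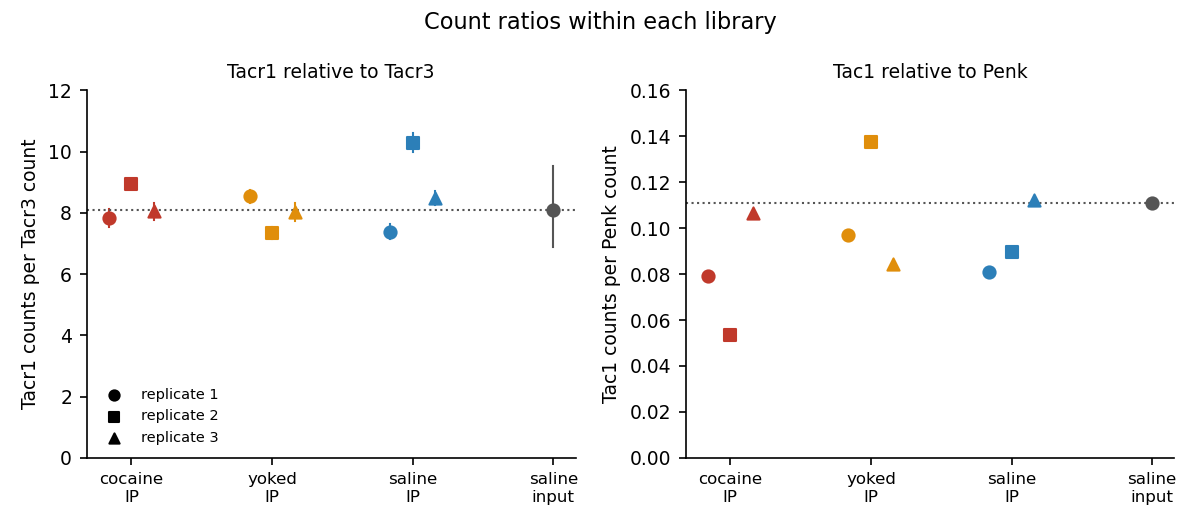
Counts of Tacr1 per Tacr3 count (left, bars are exact 95% counting intervals) and of Tac1 per Penk count (right) in each library, by group, with the input as a dotted line. The receptor ratio lies between 7.34 and 10.3 after immunopurification and at 8.09 in the input, and the Tac1 to Penk ratio lies between 0.0534 and 0.138 and at 0.111 in the input.

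NK1 receptors are also known from the striatal interneurons that contain somatostatin and neuropeptide Y. Markers of other striatal interneurons had a log2 ratio to the input of −3.20 ± 0.11 at the median (SD over 3 library medians), and 8 of 9 were at least 2-fold lower in all 3 saline libraries. Their summed level was 40.6 to 62.2 CPM in cocaine, 35.2 to 57.2 CPM in yoked and 30.0 to 39.8 CPM in saline libraries, against 324 CPM in the input. Sst, which encodes somatostatin, had a log2 ratio of −3.20 ± 0.58 and Npy, which encodes neuropeptide Y, of −5.53 ± 2.41. Cck, the cholecystokinin precursor, had −4.15 ± 1.03 and Pvalb, a calcium-binding protein of fast-spiking interneurons, −4.58 ± 1.53. The exception in the list was Th, which makes the precursor of dopamine, at 0.93 ± 0.35. The part of other interneurons in the Tacr1 and Tacr3 counts was not tested.

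Tac1 lies on chromosome 6 from 7555061 to 7562978, with no overlapping RefSeq gene. Tac1 measured 11.8, 6.17 and 8.72 CPM in saline immunopurified libraries 1 to 3, against 95.4 CPM in the input. Every immunopurified library was far below the input. The log2 ratio was −3.47 ± 0.47 (SD, n = 3), 11.1-fold lower, with a pooled counting interval of 10.2 to 11.8-fold lower. Without saline library 2 the log2 ratio of Tac1 was −3.23. Fewer cells of a type and less RNA per cell cannot be told apart in such libraries.

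Most markers of spiny projection neurons were, like Tac1, lower than the input. Of 6 markers of D1 spiny neurons 4 were at least 2-fold lower in all 3 saline libraries, and their median lay at −3.35 ± 0.85 on the log2 scale (SD over 3 library medians). Drd1, the D1 dopamine receptor, was 13.0-fold, Pdyn, the dynorphin precursor, 8.02-fold and Ebf1, a transcription factor, 15.5-fold lower than the input. The other 2 D1 markers did not follow, Sfxn1, a mitochondrial serine transporter, at a log2 ratio of 0.044 ± 0.26 and Chrm4, a muscarinic receptor, at 1.05 ± 0.37. The 6 D2 spiny neuron markers had a median of −2.97 ± 0.51, with 4 lower and 1 higher, Ttc12 at 1.95 ± 0.29, and the 11 markers of spiny neurons in general had −2.85 ± 0.60 and 10 were lower. Medians of the astrocyte, oligodendrocyte, microglia and cortical glutamatergic neuron markers lay between −3.08 and −4.39. A ratio as low as that of Tac1 was thus not particular to spiny neurons.

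The D1 list summed to 220 to 245 CPM in cocaine, 208 to 264 CPM in yoked and 209 to 265 CPM in saline libraries, against 658 CPM in the input, and none of its genes was at 0 in any library. Per 100 counts of the whole D1 list, Tac1 had 4.64 ± 0.96 counts in cocaine, 4.92 ± 0.67 in yoked and 3.76 ± 1.27 in saline libraries (SD, n = 3 each), against 14.5 in the input, so it lay lower than that list's sum, of which Sfxn1 is a large share. Relative to Penk, which encodes the enkephalins of D2 spiny neurons, it had 0.0797 ± 0.027 counts per Penk count in cocaine, 0.106 ± 0.028 in yoked and 0.0944 ± 0.016 in saline libraries (SD, n = 3 each), against 0.111 in the input. To Pdyn, Tac1 stood at 2.05 ± 0.58, 3.04 ± 2.60 and 1.67 ± 0.37 counts per count in the cocaine, yoked and saline libraries, against 2.28 in the input, with yoked library 2 apart at 6.04. How much of the Tac1 RNA in the immunopurified libraries came from spiny neurons was not tested.

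Tac2 was close to the detection floor. Tac2 had 14, 0 and 1 counts in cocaine libraries 1 to 3, 0, 2 and 12 in the yoked libraries and 5, 0 and 18 in the saline libraries, against 55 counts (1.34 CPM) in the input. The counts scattered within every group, each of which had 1 library at 0. Pooled over the saline libraries, Tac2 was 5.80-fold lower than the input, with a counting interval of 3.5 to 9.88-fold lower. Tac2 is also known from the medial habenula, which lies outside the striatum. The 5 habenula markers summed to 6.72 to 7.80 CPM in cocaine, 6.81 to 10.2 CPM in yoked and 6.72 to 13.9 CPM in saline libraries, against 22.4 CPM in the input. Nwd2 made up most of that sum, and the other 4 markers lay at 0.22 to 1.03 CPM in the input. Their part in the Tac2 counts was not tested.

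Tacr2 had 0, 57 and 4 counts in cocaine libraries 1 to 3, 0, 29 and 8 in the yoked libraries, 0 in each saline library and 0 in the input. In CPM the highest values were 0.758 in cocaine library 2 and 0.955 in yoked library 2, and the floor of 3 counts taken for a count of 0 is 0.0713 to 0.117 CPM in the saline libraries. Summed over the group, the cocaine libraries held 61 Tacr2 counts and the yoked libraries 37. In pooled CPM these were ratios of 15.6 and 10.8 to a floor of 3 counts over the 3 saline libraries together. Neither ratio is a lower limit, as the exact upper limit for the pooled saline count of 0, 0.0372 CPM, lies above that floor of 0.0303 CPM. The exact lower limits were 0.361 CPM for the cocaine and 0.231 CPM for the yoked libraries, from counting error only. Cocaine library 1 and yoked library 1 were at 0 like the saline libraries, so the groups overlapped, and 57 of the 61 cocaine counts and 29 of the 37 yoked counts came from the library numbered replicate 2. Without that library the cocaine sum was 4 counts, a ratio of 2.45 to the saline floor, and the yoked sum 8 counts, a ratio of 3.21. That floor still included saline library 2, and these ratios carry no counting interval and are not lower limits. Whether these counts are Tacr2 transcripts of cholinergic neurons was not tested. Tacr2 did not pass the filter on low counts. The two-sided exact permutation test gave p = 0.4 between cocaine and saline, 0.7 between cocaine and yoked and 0.4 between yoked and saline, but with these values it could not have gone below 0.4 in the comparisons with saline and says nothing there. Between cocaine and yoked it could reach 0.1. Without the filter, edgeR gave Tacr2 an unadjusted p of 0.00351 between cocaine and saline (adjusted 0.297) and 0.00258 between yoked and saline (adjusted 0.556), so neither was called. No RefSeq gene overlaps Tacr2 (chromosome 10, 62252438 to 62265990), and Hk1, a hexokinase, lies nearest, 2865 bases away. Tac4, the further tachykinin gene that encodes hemokinin, had 3 counts in yoked library 3 and 0 in the other 9 libraries, which is at the floor.

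**Figure D3:**
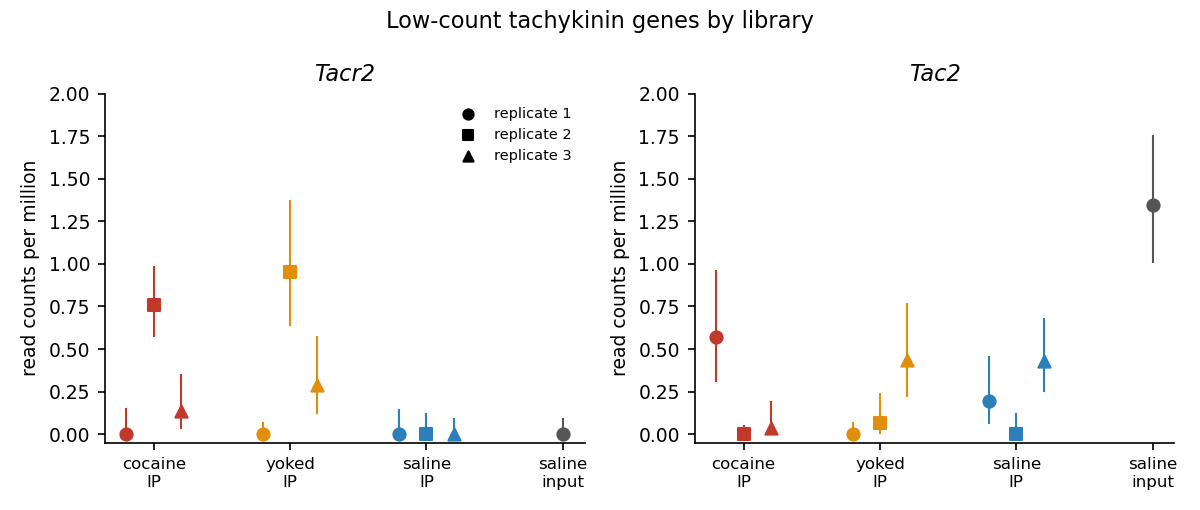
Tacr2 (left) and Tac2 (right) in CPM in each library, by group, with exact 95% Poisson intervals as bars. Tacr2 reaches 0.758 and 0.955 CPM in the cocaine and yoked libraries numbered replicate 2 and is at 0 in the saline libraries and the input, and Tac2 is highest in the input at 1.34 CPM.

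The treatment comparisons asked whether tachykinin transcripts on cholinergic ribosomes differ after cocaine self-administration. None of the 4 tested members differed beyond the spread between libraries in any comparison. In edgeR's quasi-likelihood test with Benjamini-Hochberg adjustment 0 of 14989 genes were called in each comparison (0%), and the smallest adjusted p over all genes was 0.850 between cocaine and saline, 0.9997 between cocaine and yoked and 0.999 between yoked and saline. At an unadjusted p under 0.05 there were 791, 391 and 327 genes in these comparisons (5.28%, 2.61% and 2.18%), with 0 of the 4 members among them. DESeq2 called 0 in each comparison, of 14970 genes to which it gave an adjusted p. Its smallest adjusted p was 0.506 between cocaine and saline, 0.253 between cocaine and yoked and 0.0502 between yoked and saline, the last just above the threshold. In CPM the groups of all 4 tested members overlapped in every comparison. Of all genes tested, 10.3% did not overlap between cocaine and saline (4.88% higher and 5.4% lower in cocaine). Between cocaine and yoked it was 6.78% (3.42% higher and 3.37% lower in cocaine), and between yoked and saline 7.05% (4.3% higher and 2.74% lower in yoked).

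Tacr1 measured 1072, 1491 and 1024 CPM in cocaine libraries 1 to 3, 1058, 1288 and 982 CPM in yoked libraries and 1099, 1514 and 1262 CPM in saline libraries. The group means were 1196 ± 257, 1109 ± 159 and 1291 ± 209 CPM (SD, n = 3 each), highest in saline and lowest in yoked, and the ranges of the 3 groups overlapped. Within each replicate number the order was also saline, cocaine, yoked from high to low. With the replicate number as a block, edgeR gave log2 fold changes of −0.10 for cocaine against saline, 0.13 over yoked and −0.24 for yoked against saline. The unadjusted p values of this blocked fit were 0.411, 0.291 and 0.0757 (adjusted p = 0.830, 0.933 and 0.999). Without the block the log2 fold change of Tacr1 was −0.086 for cocaine against saline (95% interval −0.50 to 0.33, edgeR adjusted p = 0.968). It was 0.16 over yoked (−0.26 to 0.57, adjusted p = 0.9997) and −0.24 in yoked over saline (−0.66 to 0.17, adjusted p = 0.999). The intervals span 0.707 to 1.26-fold, 0.835 to 1.49-fold and 0.634 to 1.13-fold. Without the 3 libraries numbered replicate 2 the 3 values were −0.19, 0.013 and −0.20.

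Tacr3 measured 137, 167 and 127 CPM in cocaine libraries 1 to 3, 124, 175 and 122 CPM in yoked libraries and 149, 147 and 149 CPM in saline libraries. Saline lay inside the range of both other groups. The log2 fold change of Tacr3 was −0.023 for cocaine against saline (95% interval −0.40 to 0.35), 0.078 over yoked (−0.29 to 0.45) and −0.10 in yoked over saline (−0.47 to 0.27). The adjusted p values from edgeR were 0.993, 0.9997 and 0.999. With the replicate number as a block, edgeR gave Tacr3 log2 fold changes of −0.043, 0.077 and −0.12. The unadjusted p values of this blocked fit were 0.760, 0.588 and 0.403 (adjusted p = 0.948, 0.953 and 0.999). Leaving out replicate 2 of each group gave −0.18, 0.074 and −0.26.

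Tac1 measured 11.9, 7.88 and 13.3 CPM in cocaine libraries 1 to 3, 11.6, 11.1 and 11.5 CPM in yoked libraries and 11.8, 6.17 and 8.72 CPM in saline libraries. The yoked libraries lay close together, and replicate 2 was the lowest in each group. The group means were 11.0 ± 2.81, 11.4 ± 0.24 and 8.89 ± 2.81 CPM (SD, n = 3 each). The log2 fold change of Tac1 was 0.32 for cocaine against saline (95% interval −0.34 to 0.97, edgeR adjusted p = 0.898), −0.026 over yoked (−0.68 to 0.63, adjusted p = 0.9997) and 0.34 in yoked over saline (−0.31 to 0.995, adjusted p = 0.999). Leaving out replicate 2 of each group gave 0.29, 0.10 and 0.19, which turns the sign between cocaine and yoked. With the replicate number as a block, edgeR gave Tac1 log2 fold changes of 0.33, −0.052 and 0.39. The unadjusted p values of this blocked fit were 0.237, 0.848 and 0.177 (adjusted p = 0.76, 0.987 and 0.999). In the same comparisons the 11 spiny neuron markers lay at 0.056, −0.058 and 0.13 (median log2 fold change), against 0.0049, 0.0011 and −0.014 over all genes tested. The D1 list lay at 0.15, 0.0021 and 0.14, and the other striatal interneurons, of which 8 were tested, at 0.46, −0.26 and 0.71. Oligodendrocyte markers lay at 0.42, 0.091 and 0.50, higher for 6 of 6 in both comparisons with saline. Spiny neuron markers were higher for 8 of 11 in cocaine and 10 of 11 in yoked over saline. The D2 list lay at 0.19, 0.20 and 0.13. Other lists differed, with astrocyte markers at 0.17, −0.25 and 0.0061 and microglia markers at −0.068, −0.42 and 0.73. Cortical glutamatergic neuron markers lay at 0.52, 0.93 and −0.14. The part of RNA from these cells in the Tac1 values was not tested.

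**Figure D4:**
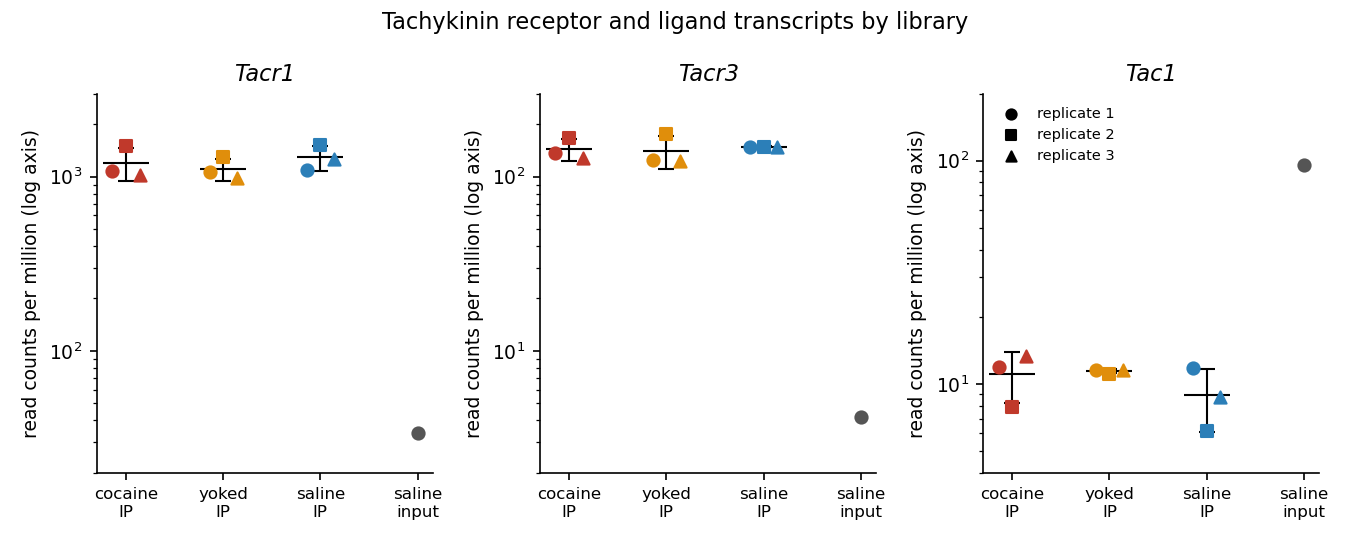
CPM (log axis) of Tacr1, Tacr3 and Tac1 in each library, by group, with mean and SD over 3 libraries as black lines and the replicate number as the symbol. The 9 immunopurified libraries lie between 982 and 1514 CPM for Tacr1, against 33.8 CPM in the input, and between 6.17 and 13.3 CPM for Tac1, against 95.4 CPM in the input.

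**Figure D5:**
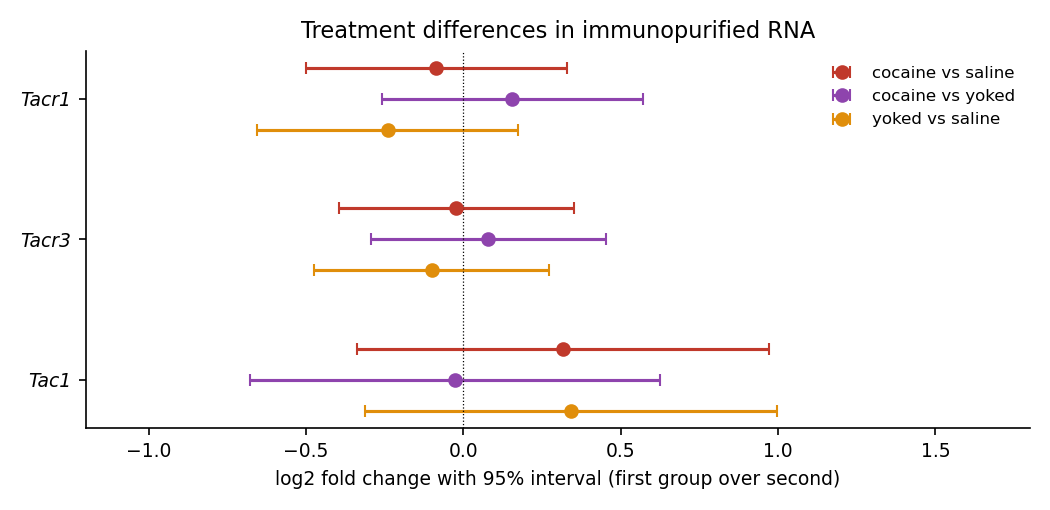
Log2 fold change with its 95% interval from edgeR for Tacr1, Tacr3 and Tac1 in the 3 treatment comparisons, first group over second. All 9 intervals include 0, and those of Tac1 are the widest, from −0.68 to 0.995. The fit held no block for the replicate number, so the intervals ignore the pairing by number.

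For Tac2 the intervals were too wide to carry a comparison. Its log2 fold change was −0.16 for cocaine against saline (95% interval −4.15 to 3.84), 0.24 over yoked (−3.86 to 4.35) and −0.40 in yoked over saline (−4.43 to 3.62). The edgeR adjusted p values were 0.997, 0.9997 and 0.999. Leaving out single libraries turned its sign in every comparison.

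The genes that make, clear and relay tachykinin signals were taken as 5 lists with 46 genes, to be read against the 12.2% of all measured genes that were higher than the input and the 23.1% that were lower. Among the enzymes that process peptide precursors, 1 of 5 was at least 2-fold above the input in all 3 saline libraries and none was lower. Pcsk1, a prohormone convertase, had a log2 ratio of 2.51 ± 0.62 (SD, n = 3) and Scg5, the chaperone of the related convertase Pcsk2, of 0.77 ± 0.37. Pcsk2 had −0.86 ± 0.35 and Pam, which amidates peptides, −0.72 ± 0.53. Of 7 peptidases 1 was higher, Ece2 at 2.77 ± 0.29, and 1 lower. Mme, the neprilysin that degrades substance P, had a log2 ratio of 0.98 ± 0.40, and Prep and Ece1 had 0.49 ± 0.14 and −0.11 ± 0.23.

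Of 14 measured Gq signalling genes 3 were higher and 6 lower, with a median of −1.51 ± 0.19 (SD of the library medians, n = 3). Plcb4, a phospholipase C, had a log2 ratio of 2.24 ± 0.21 and Prkca, a protein kinase C, of 2.13 ± 0.27. Plcb1 had −2.74 ± 0.79 and Itpr2, an inositol trisphosphate receptor, −2.28 ± 0.66. Phospholipase C and protein kinase C genes thus divided in the comparison with the input. Of 6 receptor kinases and arrestins 2 were higher and none lower. Grk5 had 1.95 ± 0.16 and Grk6 1.53 ± 0.20, and Adrbk2 and the arrestin Arrb1 had 0.61 ± 0.082 and 0.42 ± 0.14.

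Of 13 channels taken as possible effectors 2 were higher and 3 lower than the input, near the shares over all genes. Trpc7, a cation channel, had a log2 ratio of 2.07 ± 0.33 (SD, n = 3), while the potassium channels Kcnq5 and Kcnj6 had −3.91 ± 0.74 and −2.86 ± 1.29. Across treatments 0 of 44 tested genes of these lists were called in any comparison, over which 0% of all genes were called, and 0 had an unadjusted p under 0.05. Their median log2 fold change between cocaine and saline was −0.15 for processing enzymes, 0.077 for peptidases, 0.27 for Gq signalling, −0.053 for kinases and arrestins and 0.013 for channels, against 0.0049 over all genes.

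Over the 9 immunopurified libraries the genes whose level followed a member most closely were found among 10246 genes of at least 5 CPM by Pearson's r of log2(CPM + 1), as a description without a test. The points share libraries and depth, and those numbered replicate 2 stand apart. For Tacr1 they were Pogk (r = 0.97), the deubiquitinase Brcc3 (0.97) and the reticulon Rtn3 (0.96), and for Tacr3 A730017C20Rik, the nuclear envelope gene Emd and the anchoring protein gene Akap1 (0.96, 0.96 and 0.95). For Tac1 they were Csrp1, a LIM domain gene, Itpr1 and the polarity gene Pard3 (0.94, 0.94 and 0.93). Over the 6 libraries without replicate 2 the r values of all these neighbours were 0.86 to 0.95. These 6 are among the 9 libraries by which the neighbours were picked, so the values are no separate check. Csrp1, Itpr1 and Pard3 were, like Tac1, lower than the input, with log2 ratios of −3.49, −2.23 and −2.05. The neighbours of Tacr1 had ratios of 0.20, 0.31 and 1.05 and those of Tacr3 of 1.70, 1.075 and −0.81, far below those of the receptors. Tacr1 had r = 0.76 with Tacr3 (0.81 over the 6 libraries without replicate 2) and r = −0.89 with Tac1 (−0.84). Among the 10246 genes Tacr3 ranked only 601 from the highest r with Tacr1, and Tac1 ranked 10214. Tacr1 ranked 324 among those of Tacr3, so many other genes followed each receptor more closely. With cholinergic genes the values differed. Tacr1 had r = 0.87 with Slc5a7 (0.89 without replicate 2), 0.54 with Chat (0.021) and −0.34 with Slc18a3, the vesicular acetylcholine transporter (−0.15). Tacr3 had 0.83 with Slc5a7 (0.62), 0.20 with Chat (−0.45) and −0.35 with Slc18a3 (−0.37).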

How the data were processed

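The authors deposited raw read counts per gene symbol for each library. STAR 2.0.0e, HTSeq and the build mm10 are named per the submitters' processing notes; annotation, strand setting and read filters are not given in the sources used here, so reads of antisense genes cannot be told apart. Rows that name no gene stayed out. Reads in no annotated feature were 7.04% to 11.2% of reads in immunopurified libraries and 15.2% in the input. Reads that fit more than 1 gene were 0.976% to 1.84% and 4.49%, and reads aligned to several places 36.3% to 57.1% and 35.4%.

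From these counts, CPM values were computed over all genes. Treatments were tested under R 4.3.3 by edgeR 4.0.16 (quasi-likelihood F-test, robust, trimmed mean of M-values) in 1 fit of all 9 immunopurified libraries with 6 residual degrees of freedom. The filter (minimum count 10, minimum total 15) kept 14989 of 22641 genes with a count, and a gene was called at a Benjamini-Hochberg adjusted p under 0.05. DESeq2 1.42.0 and limma 3.58.1 served as alternatives. Ratios to the input are log2 of CPM over CPM per library, with 0 set to 3 counts, a rule that touches 1 saline library for Tac2. Intervals are exact at 95% and, as reads carry no molecular identifiers, cover counting error only. The edgeR fit was also run on counts simulated with means and spreads taken from these data, after the main fit, and the outcome is not reported here.

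Deviations from the group means correlated between same-numbered libraries at 0.11, 0.11 and 0.15 for cocaine and yoked and at 0.16, 0.18 and 0.13 for yoked and saline, so the numbers were taken to pair these libraries. The main fit held no block for the replicate number, and its intervals and adjusted p values ignore this pairing. Results with the block are named as such. For cocaine and saline they were 0.11, 0.10 and 0.078.

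The members, the 5 pathway lists and the 10 marker lists were chosen with earlier results of these data known. The 5 members are always named. Of a pathway list the text names the 2 highest and the 2 lowest ratios to the input among genes with at least 100 counts, and of a marker list set beside a member up to 4 with the highest input level. A further channel gene is not reported here. The 3 genes most like a member are named for members of at least 1 CPM. Genes outside these rules, such as Penk, were named as context after their values were seen. Median log2 ratios of the marker lists not described further were −1.34 for the medial habenula, −3.79 for microglia, −3.08 for astrocytes, −4.39 for glutamatergic neurons of the cortex and −3.39 for oligodendrocytes.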

Additional observations from a re-analysis of the deposited data

How the results depend on the processing

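Without a filter on low counts edgeR called 60 genes between cocaine and saline, 27 between cocaine and yoked and 18 between yoked and saline, none of them a member; under the other settings run, leaving out single libraries included (0 to 0), the count stayed at 0. The ratio to the input of Tacr3 was 5.19 with scaling factors that include the input, 5.09 for cocaine and 5.05 for yoked libraries, and that of Tac2 was −3.87 for cocaine libraries. Leaving out 1 saline library gave −3.70 to −3.23 for Tac1, −3.30 to −2.22 for Tac2, 5.12 to 5.35 for Tacr1 and 5.14 to 5.15 for Tacr3.

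Of the member fold changes under alternatives, 144 kept their sign and 21 turned, and none was called. Without single libraries, cocaine against saline ranged from −0.30 to 0.035 for Tacr1 (positive without cocaine 3 or saline 2), −0.16 to 0.078 for Tacr3 (without cocaine 1 or 3) and −3.75 to 1.004 for Tac2. Cocaine against yoked ranged from −0.064 to 0.28 for Tacr1 and −0.069 to 0.23 for Tacr3 (both negative without cocaine 2), −0.16 to 0.15 for Tac1 (positive without cocaine 2 or yoked 1) and −3.36 to 2.65 for Tac2, and yoked against saline from −2.79 to 0.76 for Tac2. Tacr3 for cocaine against saline was 0.0012 without a filter and −0.18 without the 3 libraries numbered replicate 2. Tac1 for cocaine against yoked was 0.073 in limma voom with quality weights and 0.10 without the 3 libraries numbered replicate 2, an alternative chosen after seeing the data. With a replicate block Tac2 was −0.42 between cocaine and yoked and 0.28 between yoked and saline, the counts of calls stayed at 0, and the block changed no other sign of a member. For cocaine and saline each library correlated best with its own number. The cause of these changes was not tested. Tac2 and Tacr2 rest on few counts, at most 18 and 57 in an immunopurified library.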
